A study of Mus musculus with 8 samples.

Results

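The genes of the SMAD proteins and of their feedback inhibitors were followed in cultured mouse astrocytes given TGF-β. The 10 genes were chosen by name: the receptor-regulated SMADs Smad1, Smad2, Smad3 and Smad5, the common partner Smad4, the inhibitory SMADs Smad6 and Smad7, the nuclear corepressors Ski and Skil (SnoN), and the E3 ubiquitin ligase Smurf2. In the count table they are the rows SMAD1, SMAD2, SMAD3, SMAD4, SMAD5, SMAD6, SMAD7, SKI, SKIL and SMURF2. All 10 were among the 13937 genes of the count table, and all 10 passed the filter on low counts that left 13509 genes for testing.

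TGF-β signals through pairs of serine/threonine kinase receptors. The activated type I receptor phosphorylates Smad2 and Smad3, while receptors for bone morphogenetic proteins (BMPs) phosphorylate Smad1, Smad5 and Smad9. The phosphorylated SMADs bind Smad4, enter the nucleus and act on target genes. Smad6 and Smad7 block the receptors or compete for their partners, Ski and Skil recruit repressor complexes to SMAD-bound promoters, and Smurf2 marks SMADs, receptors and Skil for degradation. In astrocytes this pathway is known for its part in reactive gliosis and in the production of extracellular matrix.

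The cells were primary astrocytes from the brains of C57BL/6 pups on postnatal day 1, either wild type (WT) or lacking RGC-32, the product of Rgcc (RGC-32 KO, shortened to KO). After removal of the meninges, cells grew in serum for weeks, were shaken to detach other cell types and were starved of serum overnight. Cultures were then left untreated (WT control and KO control) or received TGF-β at 10 ng/ml over 24 h (WT TGF-β and KO TGF-β), with 2 libraries described as biological replicates in each of the 4 groups. How many pups gave each culture is not given in the sources used here, and transcript levels carry no information on SMAD phosphorylation, location or protein.

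The 8 libraries held 14920561 to 18956038 counts on genes. The spread between replicates exceeded counting noise in each group (chi-square per degree of freedom from 6.14 to 10.1). Rgcc had 80 and 94 counts in WT control and 215 and 362 in WT TGF-β, against 61 and 28 in KO control and 64 and 26 in KO TGF-β, so every KO library was below every WT library although none was at 0. All 10 astrocyte markers examined, Gfap and Aqp4 among them, were present in every library, and their sum was 4628 to 4808 CPM (counts scaled to TMM-normalized library totals) in WT control and 3565 to 3672 CPM in WT TGF-β. In KO it was 5301 to 5923 CPM in control and 4354 to 4631 CPM with TGF-β. The summed level of the 10 microglial markers was 1010 to 1323 CPM over the 8 libraries, so the cultures were not free of other cells. The 10 meningeal fibroblast markers summed to 5375 to 6739 CPM in WT control and 10196 to 11620 CPM in WT TGF-β, and to 4521 to 4683 and 7920 to 7952 CPM in KO. In WT their members went different ways: 3 were called higher with TGF-β (a log2 fold change of 0.6 or more at an adjusted p under 0.05), namely Col1a1, itself a TGF-β target, Col1a2 and Pdgfrb, and Dcn was called lower, from 4744 and 5568 counts to 3864 and 3157. In KO 3 were called higher and none lower. Oligodendrocyte lineage markers (8 of 9 in the table, Mog absent) summed to 229 to 266 CPM in WT control and 461 to 545 in WT TGF-β, and to 221 to 262 and 374 to 491 in KO. In WT, 1 of these 8 was called higher, Cspg4, with 597 and 426 counts in control and 4652 and 4719 with TGF-β, and Pdgfra was called lower, whereas Olig1 had 2571 and 2442 counts against 2568 and 2871. In KO 2 of the 8 were called higher and 1 lower. The 5 of 8 neuron markers in the table (without Rbfox3, Snap25 and Slc17a6) summed to 305 to 316 CPM in WT control and 378 to 397 in WT TGF-β, and 1 was called higher in each genotype. The 6 of 8 endothelial markers (without Cldn5 and Emcn) summed to 104 to 129 CPM in WT control and 74.7 to 78.6 in WT TGF-β. Of these 6, 1 was called higher and 1 lower in WT, and 1 higher and 2 lower in KO. All 5 ependymal markers in the table (without Tmem212) were called lower in WT, where their sum was 348 to 404 CPM in control and 219 to 247 with TGF-β, and 2 were in KO. By the same rule 3 of the 10 astrocyte markers were called lower in WT and 2 in KO, and none was called higher. Of the 10 microglial markers, 1 was called higher in each genotype and none lower. The part of other cell types in the results was not tested.

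The classes of SMAD can be told apart in their coding sequence. Receptor-regulated SMADs end in a Ser-Ser-X-Ser motif, whose last serines are phosphorylated by the receptor, and inhibitory SMADs lack it. The last 30 coding bases before the stop codon, 5′ to 3′ on the coding strand in GENCODE release M21 (GRCm38), are shown for 4 members because this end separates the class that receives the signal from the class that blocks it. Capitals mark the last 4 codons.
Smad3 (chr9:63650265-63650294, minus strand): tccccgagcatccgctgtTCCAGTGTGTCT
Smad1 (chr8:79339652-79339681, minus strand): tcaccccacaatcctattTCATCCGTGTCT
Smad5 (chr13:56737446-56737475, plus strand): tctccgctgaaccccattTCTTCTGTTTCA
Smad6 (chr9:63953527-63953556, minus strand): tggctggagatcctactcAACAACCACAGA
In Smad3, Smad1 and Smad5, 3 of the 4 codons in capitals encode serine, and in Smad6 none of the 4 does. The coding lengths are 425 codons for Smad3, 465 for Smad1 and for Smad5, and 495 for Smad6.

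Of the 10 genes, Skil and Smad7 rose strongly with TGF-β in both genotypes, Smurf2 rose by less, and the SMADs that carry the signal stayed within 0.2 of their control level on the log2 scale of TMM-scaled counts. Skil reached 3.22-fold its control level in WT and 3.04-fold in KO astrocytes, and Smad7 2.55-fold and 2.24-fold. The threshold asked for a log2 fold change of 0.6 or more in size together with an adjusted p below 0.05 in edgeR's quasi-likelihood test with Benjamini-Hochberg adjustment over all genes tested. By that rule 2 of the 10 genes were called in WT, both higher, against 13.4% of all genes (7.72% higher and 5.65% lower). In KO the same 2 genes were called, against 11.5% of all genes (6.61% higher and 4.93% lower). These are bulk libraries, in which fewer cells of a type and less RNA per cell cannot be told apart.

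Skil lies at chr3:31095058-31122577 on the plus strand (GRCm38) and encodes SnoN, a corepressor that binds Smad2, Smad3 and Smad4. Its level was 80.1 and 68.2 CPM in the WT control libraries and 224 and 254 CPM in WT TGF-β. In KO it was 72.6 and 67.8 CPM in control and 201 and 226 CPM with TGF-β. All 4 treated libraries stood far above all 4 control libraries, and the control libraries of the genotypes overlapped. In WT the log2 fold change was 1.69 (SE 0.10, adjusted p = 0.000102), and in KO 1.60 (SE 0.10, adjusted p = 0.000137).

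Smad7 encodes the inhibitory SMAD that recruits Smurf ligases to the type I receptor. It measured 25.3 and 25.5 CPM in WT control and 63.5 and 66.4 CPM in WT TGF-β. In KO its level was 28.7 and 30.1 CPM in control and 64.4 and 67.6 CPM with TGF-β. The treated libraries of both genotypes lay in one range, whereas both KO control libraries lay above both WT control libraries. TGF-β changed it by 1.35 on the log2 scale in WT (SE 0.06, adjusted p = 6.19e-05) and by 1.16 in KO (SE 0.06, adjusted p = 7.28e-05), and 97.3% and 96.6% of all genes had a lower log2 fold change.

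**Figure D1:**
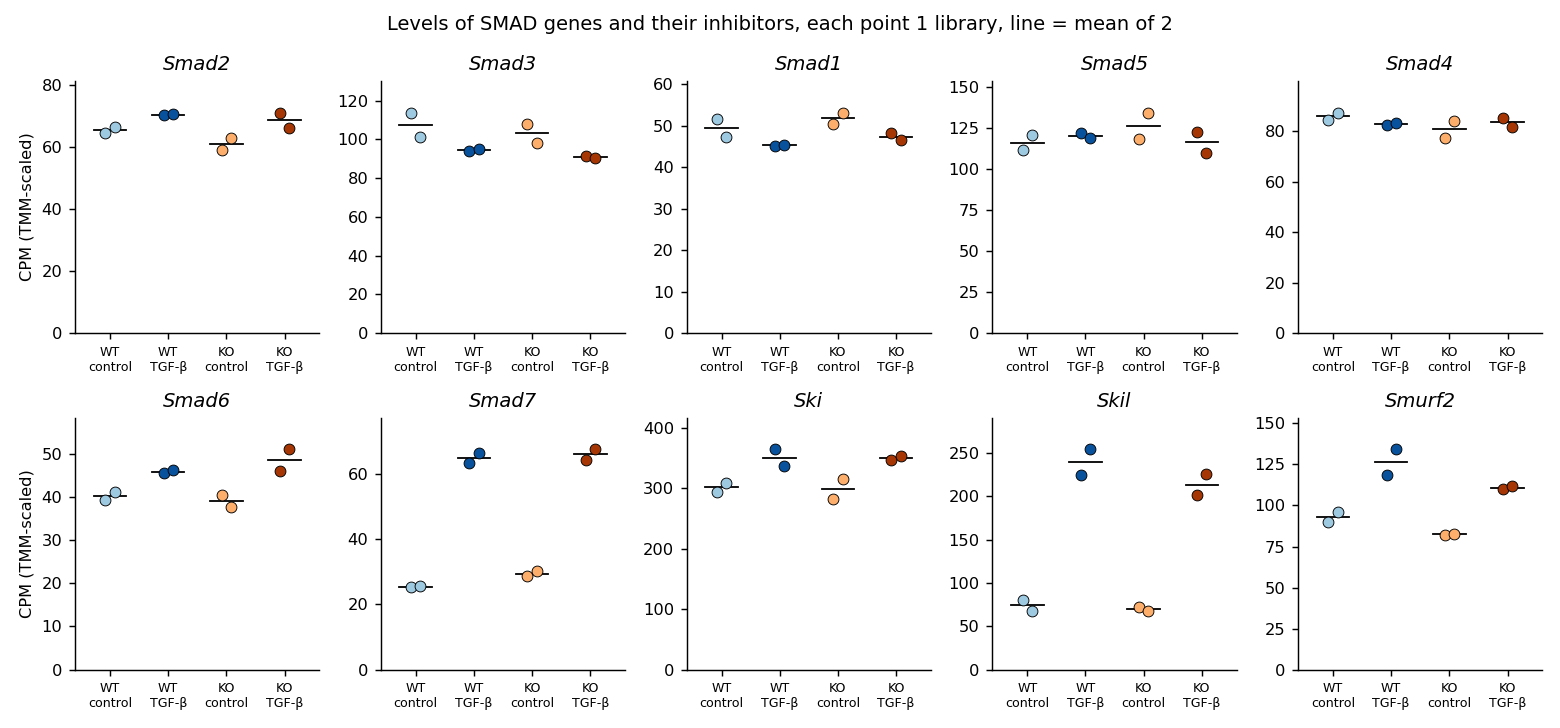
Level of each gene in CPM (vertical axes, each starting at 0) in the 4 groups (horizontal axes), with 1 point per library and a line at the mean of the 2 libraries. Skil and Smad7 separate treated from control libraries widely, Smurf2, Ski and Smad6 by a smaller gap, while treated and control libraries of Smad5 overlap in both genotypes and those of Smad4 in KO.

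Smurf2, at chr11:106820066-106920715 on the minus strand, is the ligase that Smad7 carries to the receptor. It had 90.1 and 96.2 CPM in WT control and 118 and 134 CPM in WT TGF-β, and 82.3 and 82.8 CPM in KO control and 110.0 and 112 CPM in KO TGF-β. Every treated library was above every control library. For WT the log2 value came to 0.44 (SE 0.07, adjusted p = 0.00321), for KO to 0.42 (SE 0.07, adjusted p = 0.00454), and both passed the adjusted p but not the fold threshold. A microRNA gene, Gm27322, shares 58 bases (0.941%) of the exons of Smurf2 on the same strand, so their reads cannot be told apart there.

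Smad6, the inhibitory SMAD known mainly for BMP receptors, differed by less than Smad7. Its level was 39.1 and 41.0 CPM in WT control and 45.4 and 46.3 CPM with TGF-β, and 40.4 and 37.7 CPM in KO control and 45.9 and 51.0 CPM with TGF-β. The treated and control libraries did not overlap in either genotype. At 0.31 (log2, SE 0.07) KO passed the test with an adjusted p of 0.0171, and WT had 0.19 (SE 0.07, adjusted p = 0.0772). The KO value missed the adjusted p in DESeq2 (0.0981), in edgeR on the KO libraries alone (0.0509) and on the authors' FPKM values (fragments per length of transcript and per size of library), where it was 0.13 (adjusted p = 0.0706). It also missed without KO control replicate 2 (0.0904) and without KO TGF-β replicate 2 (0.159).

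Ski, the second corepressor, showed a small difference of the same sign as Skil. It had 294 and 309.5 CPM in WT control and 365 and 337 CPM in WT TGF-β, and 283 and 315 CPM in KO control and 348 and 354 CPM in KO TGF-β. All treated libraries lay above all control libraries. The adjusted p missed the threshold within each genotype, with 0.22 for WT (log2, adjusted p = 0.0555) and 0.23 for KO (adjusted p = 0.0511).

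Among the SMADs that answer to TGF-β receptors, Smad3 was lower after treatment under each scaling tried, and Smad2 slightly higher on counts but not on FPKM. Smad3 had 114 and 101 CPM in WT control and 94.2 and 94.9 CPM in WT TGF-β, and 108 and 98.1 CPM in KO control and 91.3 and 90.4 CPM in KO TGF-β. Every treated library was below every control library, at -0.19 on the log2 scale for WT (adjusted p = 0.0828) and -0.18 for KO (adjusted p = 0.101). It passed the adjusted p with upper quartile scaling, at -0.27 (0.0193) and -0.26 (0.0255), and on FPKM, at -0.32 in each genotype (0.00986 and 0.00997). Smad2 had 64.6 and 66.4 CPM in WT control and 70.4 and 70.6 CPM in WT TGF-β, and 59.0 and 62.9 CPM against 71.2 and 66.2 CPM in KO. The log2 fold change of Smad2 came to 0.11 for WT (adjusted p = 0.224) and 0.17 for KO (adjusted p = 0.0729).

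The SMADs of the BMP branch and the common partner did not pass the test in either genotype on TMM-scaled counts, but Smad1 did under other scalings, and the signs of Smad5 in WT and of Smad4 in KO turned with the scaling. Smad1 ran from 45.2 to 53.2 CPM over the 8 libraries, with a log2 fold change of -0.13 in each genotype (adjusted p = 0.182 in WT and 0.187 in KO). With upper quartile scaling Smad1 had -0.21 in each genotype (adjusted p = 0.0391 and 0.0447), and on FPKM -0.29 in WT (0.00412) and -0.31 in KO (0.00361). Smad5 ran from 109.8 to 134 CPM, with 0.05 in WT and -0.12 in KO. A gene annotated as miscellaneous RNA, Gm27301, shares 100 bases (1.35%) of the exons of Smad5 on the same strand. Smad4, which every branch shares, ran from 77.3 to 87.4 CPM, with -0.05 in WT and 0.05 in KO, and the 95% intervals of -0.19 to 0.09 and -0.09 to 0.19 bound its response in both genotypes.

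**Figure D2:**
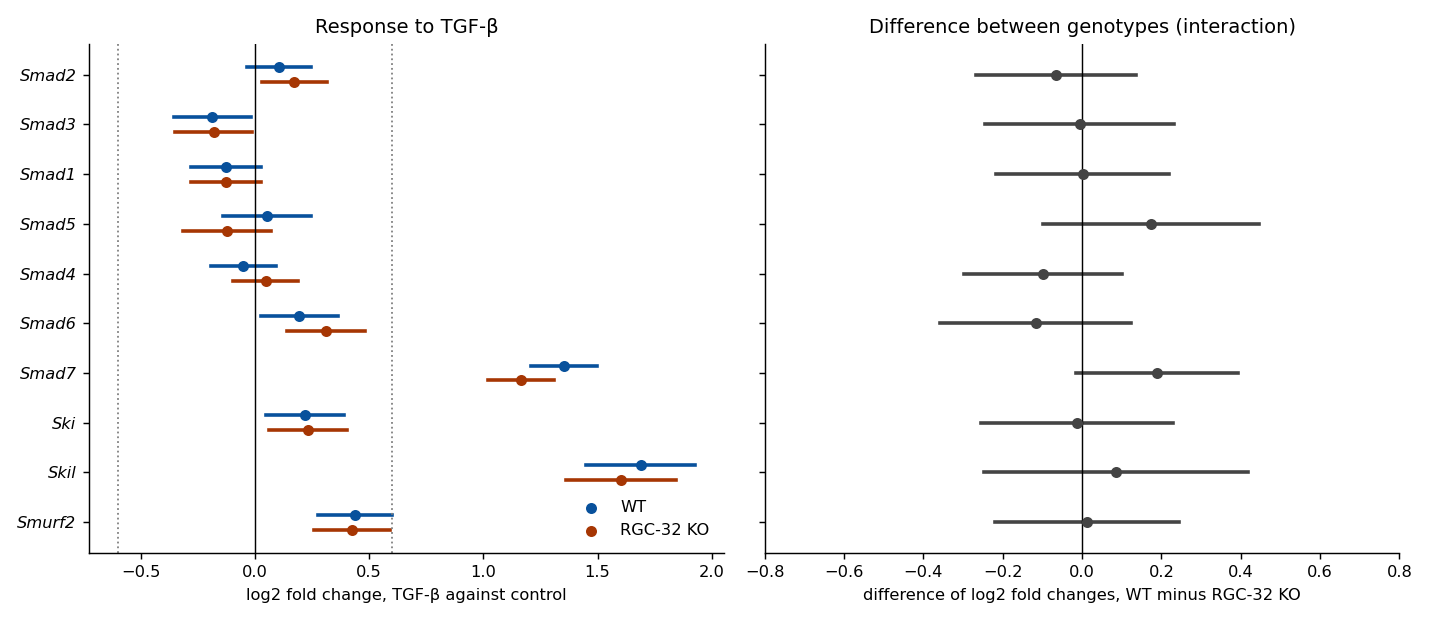
Left, log2 fold change of each gene with TGF-β against control in WT (blue) and KO (brown), with 95% intervals and dotted lines at the fold threshold of 0.6. Right, the difference of these log2 fold changes, WT minus KO, with its 95% interval. Skil and Smad7 alone lie beyond the threshold, and every interval on the right spans 0.

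Averaging the response over the genotypes used all 8 libraries for each gene and gave smaller errors. Again 2 of the 10 genes passed the threshold, both higher, against 15.1% of all genes (8.33% higher and 6.75% lower). The log2 fold change was 1.65 (SE 0.07, adjusted p = 8.65e-06) for Skil, 1.26 (SE 0.04, adjusted p = 4.08e-06) for Smad7 and 0.43 (SE 0.05, adjusted p = 0.000359) for Smurf2. At an adjusted p under 0.05 with no fold threshold, 6 genes rose and 1 fell, against 48.1% of all genes (25.7% higher and 22.4% lower). The 3 further genes that rose were Smad6 at 0.25 (adjusted p = 0.00527), Ski at 0.22 (adjusted p = 0.00930) and Smad2 at 0.14 (adjusted p = 0.0313), and the gene that fell was Smad3 at -0.18 (adjusted p = 0.0196). Smad1 did not pass, at -0.13 (adjusted p = 0.0556).

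Skil, Smad7 and Smurf2 kept an adjusted p under 0.05 under each scaling tried and without any single library, and the smaller shifts did not. Without each library in turn, Smad2 missed that adjusted p in 7 of 8 cases, at 0.0546 to 0.135, and kept it only without KO control replicate 2. Smad3 missed it without WT control replicate 1 (adjusted p = 0.0591), without WT TGF-β replicate 1 (0.0506) and without the KO TGF-β library of replicate 1 (0.0529). Smad6 kept it in the average over genotypes without any single library. With upper quartile scaling, which set the median of all genes at -0.08 on the log2 scale for the averaged response, the adjusted p became 0.0601 for Ski and 0.353 for Smad2, while Smad1 passed it at -0.21 (adjusted p = 0.00681). Smad1 also passed with RLE scaling (-0.13, adjusted p = 0.0479) and with at least 10 counts asked of every library (-0.14, adjusted p = 0.0373). The share of called genes that were higher in the average moved from 55.2% to 43.9% under upper quartile scaling. On FPKM Smad2 turned to -0.01, Smad6 had an adjusted p of 0.0515, Ski one of 0.184, and Smad4 passed at -0.11 (adjusted p = 0.0382). Smad1 passed there at -0.30 (adjusted p = 0.000481) and Smad3 at -0.32 (adjusted p = 0.00142), while the median of all genes was itself at -0.11. With Bonferroni's correction of the edgeR test on TMM-scaled counts, Skil and Smad7 kept an adjusted p under 0.05 in the average. Smurf2 did not keep it with that correction (0.393).

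Without a sign or a fold, the treated and control libraries of both genotypes together did not overlap for 6 of the 10 genes, Skil, Smad7, Smurf2, Smad6, Ski and Smad3, against 43.5% of all genes (23.3% higher and 20.2% lower). The median absolute log2 fold change was 0.20 over the 10 genes and likewise 0.20 over all genes tested. Skil had a larger log2 fold change than 98.2% of all genes and Smad7 than 97.1%.

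**Figure D3:**
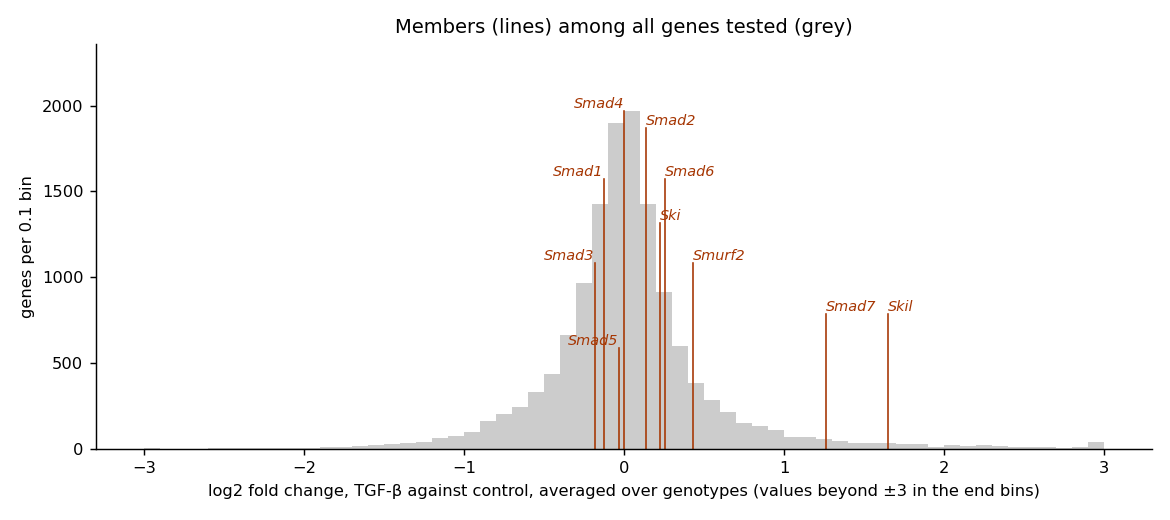
Log2 fold change with TGF-β averaged over the genotypes (horizontal axis) against the number of genes per bin of 0.1 (vertical axis) for the 13509 genes tested, in grey, with the 10 genes as lines whose heights carry no value. Skil at 1.65 and Smad7 at 1.26 lie in the upper tail, and Smad4 lies at the centre.

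The genotype itself made no difference that passed the test. Without TGF-β 0 of the 10 genes were called, against 0.0370% of all genes, and with TGF-β again 0, against 0.0444%. Averaged over the treatments 0 were called, against 0.126%. Of the 10 genes, 2 reached an unadjusted p below 0.05 in edgeR without TGF-β and 1 did with TGF-β, where 6.84% and 11.7% of all genes did. In DESeq2 and in limma-voom, the adjusted p of Smad7 and of Smurf2, the genes with the smallest p, also missed the threshold in each of these comparisons.

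Smad7 and Smurf2 were the genes behind those counts, in opposite directions. Smad7 averaged 25.4 CPM in WT control and 29.4 CPM in KO control, a log2 difference of -0.21 for WT against KO (SE 0.07, unadjusted p = 0.0122 and adjusted p = 0.5995 in edgeR). With TGF-β the means were 65.0 and 66.0 CPM. Smurf2 averaged 93.1 CPM in WT control and 82.6 CPM in KO control, a log2 difference of 0.17 (adjusted p = 0.710), and 126 against 111 CPM with TGF-β, a log2 difference of 0.19 (adjusted p = 0.369). Both WT libraries lay above both KO libraries in each treatment for Smurf2, and averaged over the treatments the log2 difference of 0.18 had an adjusted p of 0.166 in edgeR. Such a separation was not particular to Smad7 and Smurf2. The genotypes were also separated for Smad2 and Smad4 without TGF-β, and for Smad1 and Smad3 with it. The share of all genes separated in this way is not given here.

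Whether RGC-32 altered the response of these genes to TGF-β was asked by the interaction, the log2 fold change in WT minus that in KO. None of the 10 genes was called in edgeR, where 0% of all genes were, and 0 of the 10 reached an unadjusted p below 0.05, against 381 (2.82%) of all genes tested. DESeq2 and limma-voom also called 0 genes, with 76 and 368 genes at an unadjusted p under 0.05. The interaction was 0.19 for Smad7 (95% interval -0.02 to 0.39, unadjusted p = 0.0658), 0.09 for Skil (-0.25 to 0.42), 0.01 for Smurf2 (-0.22 to 0.25) and -0.12 for Smad6 (-0.36 to 0.12), all with an adjusted p of 1.00. For Skil the interval thus leaves room for a difference of 0.42 on the log2 scale.

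Levels can be ranked between genes only per length, for which the deposited FPKM values were used. In WT control Ski stood highest at 49.98 ± 2.8 FPKM (SD, n = 2), followed by Smad4 at 20.1 ± 0.43, Smad3 at 18.6 ± 1.4, Smad5 at 16.2 ± 0.89, Smurf2 at 14.6 ± 1.0, Smad1 at 14.6 ± 0.74, Smad6 at 13.0 ± 0.47 and Skil at 9.73 ± 0.99. Smad2 at 5.93 ± 0.074 and Smad7 at 5.32 ± 0.18 stood lowest of the 10. In that order the library ranges of Smurf2 and Smad1 overlapped, while the other neighbours among the 10 did not. With TGF-β, Skil moved to second place at 27.7 ± 0.29 FPKM in WT and 25.5 ± 0.018 FPKM in KO, below Ski at 53.3 ± 3.8 and 53.1 ± 1.2. Smad7 moved to 12.1 ± 0.45 FPKM in WT and 12.9 ± 0.46 FPKM in KO, and its library range then overlapped that of Smad1 in both genotypes. On RPKM over the longest transcript in place of FPKM, Smad1 and Smad6 changed places in WT control, as did Smad5 and Smurf2. With TGF-β Smad7 then lay above Smad1 without overlap, at 15.2 ± 0.49 against 11.99 ± 0.021 RPKM in WT and 15.4 ± 0.53 against 12.6 ± 0.29 RPKM in KO, and its range overlapped that of Smad6.

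Ratios within a library do not depend on how libraries are scaled. The FPKM ratio of Skil to Ski was 0.217 and 0.174 in WT control and 0.490 and 0.551 in WT TGF-β, and 0.204 and 0.172 against 0.472 and 0.488 in KO. The ratio of Skil to Smad4, to which its product binds, was 0.528 and 0.443 in WT control and 1.51 and 1.52 in WT TGF-β, and 0.496 and 0.434 against 1.34 and 1.37 in KO. The corepressor transcript was thus below that of Smad4 in each control library and above it in each treated library. For the inhibitory SMADs, the ratio of Smad7 to Smad6 was 0.409 and 0.407 in WT control and 0.923 and 0.862 in WT TGF-β, and 0.442 and 0.470 against 0.953 and 0.851 in KO. Smad6 thus remained the more abundant of the pair per length in every library, though on RPKM only by little after treatment. There the ratio was 0.971 and 0.997 in WT TGF-β and 0.974 and 0.920 in KO TGF-β.

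The 8 SMAD genes, with Smad9 added, were also expressed as shares of their summed FPKM. Smad7 took 5.35% ± 0.16 (SD, n = 2) of that sum in WT control and 12.9% ± 0.47 in WT TGF-β, and 5.83% ± 0.029 and 13.4% ± 0.34 in KO. Smad3 took 18.7% ± 1.5 and 15.6% ± 0.73 in WT, and 17.8% ± 1.7 and 14.8% ± 0.25 in KO. The summed level of Smad6 and Smad7 was 0.291 and 0.311 times that of the receptor-regulated SMADs in WT control and 0.516 and 0.506 times in WT TGF-β, and 0.307 and 0.297 against 0.531 and 0.550 times in KO. The 4 treated libraries all lay above the 4 control libraries in this ratio.

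**Figure D4:**
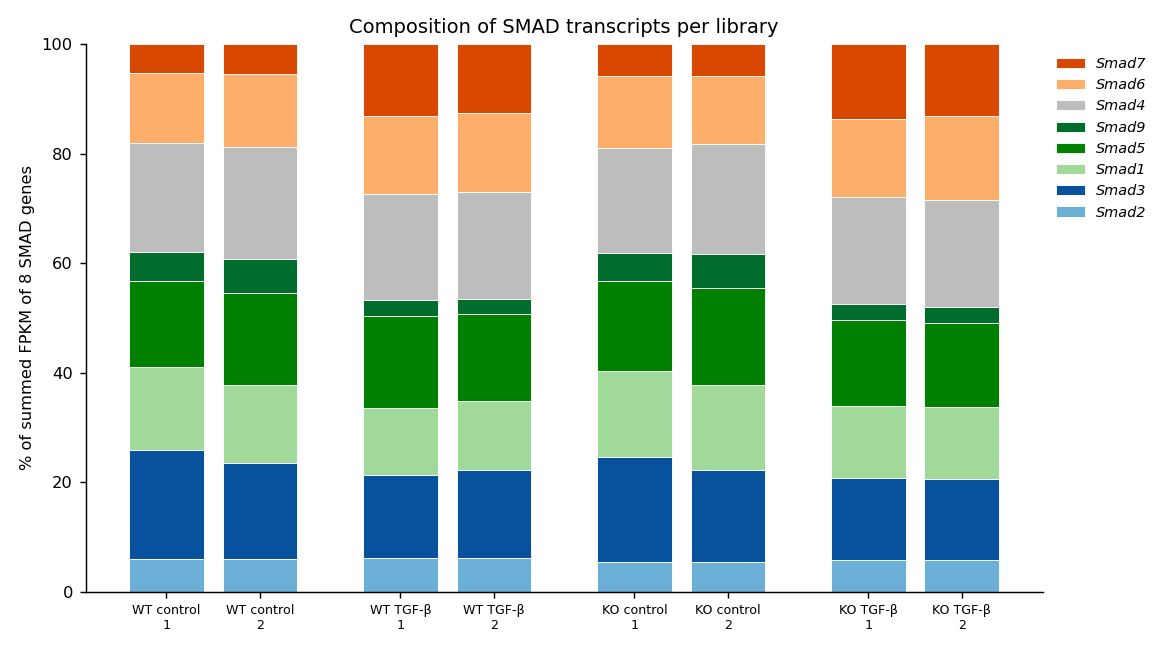
Share of each of the 8 SMAD genes in their summed FPKM (vertical axis, percent) in each of the 8 libraries (horizontal axis), stacked to 100. The share of Smad7 is larger and that of Smad9 smaller in the treated libraries of both genotypes.

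Smad9, the receptor-regulated SMAD of the BMP branch that was not among the 10 genes, went the other way from Smad7. It had 31.3 and 35.5 CPM in WT control and 15.5 and 15.5 CPM in WT TGF-β, and 27.1 and 39.4 CPM against 18.2 and 16.7 CPM in KO. In both genotypes it passed the threshold and fell by 1.10 (log2) for WT (SE 0.17, adjusted p = 0.00246) and fell by 0.93 for KO (SE 0.17, adjusted p = 0.00595). Its share of the summed SMAD FPKM was 5.66% ± 0.57 (SD, n = 2) in WT control and 2.80% ± 0.15 in WT TGF-β, and 5.68% ± 0.76 and 2.91% ± 0.028 in KO.

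Smurf1, the close relative of Smurf2, had 71.7 and 68.8 CPM in WT control and 103 and 119 CPM in WT TGF-β, and 67.5 and 65.6 CPM against 96.6 and 102 CPM in KO. It rose past the threshold in WT at a log2 fold change of 0.66 (adjusted p = 0.000727) and had 0.58 in KO (adjusted p = 0.00164), just under the fold threshold. The interaction of Smurf1 was 0.09 (adjusted p = 1.00), so a difference between the genotypes was not shown. The FPKM ratio of Smurf2 to Smurf1 was 1.24 and 1.35 in WT control and 1.12 and 1.11 in WT TGF-β, and 1.19 and 1.25 against 1.12 and 1.11 in KO.

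The other genes of the pathway were taken from lists by role. Their counts stand against 7.72% of all genes higher and 5.65% lower in WT, and 6.61% and 4.93% in KO, and with few genes a list it was not tested whether any list stood apart from all genes. Of 19 other negative regulators and ubiquitin enzymes, 4 rose past the threshold for WT and 3 for KO, and none fell past it. The list's median log2 fold change was 0.17 and 0.16. At an adjusted p under 0.05 with no fold threshold, 10 of the 19 were higher and 5 lower in the average over genotypes. Of all genes, 25.7% were higher and 22.4% lower by that rule. Pmepa1, a membrane adaptor that sequesters Smad2 and Smad3, rose by 2.63 in WT and 2.65 in KO. Ldlrad4, its relative in sequence and function, rose by 2.08 and 2.20, and Tgif1, a nuclear corepressor of Smad2, by 0.65 and 0.64. The fourth in WT was Smurf1. Pmepa1 and Ldlrad4 had a larger log2 fold change than any of the 10 genes.

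Among 12 receptors and co-receptors, 3 were higher and 1 was lower past the threshold in each genotype. Acvr1, a type I receptor that signals to Smad1 and Smad5, rose by 1.17 in WT and 1.14 in KO, and Bmpr2, its type II partner, by 1.03 and 0.83. Eng, the co-receptor endoglin, rose by 0.91 and 0.85. Tgfbr3, the co-receptor betaglycan, fell by 1.15 and 1.31. Of the 3 ligands, Tgfb1 rose by 1.18 and 1.11. The other 2 were lower in each genotype at an adjusted p under 0.05, but not past the fold threshold. Of 10 nuclear partners tested (Foxh1 could not be), Runx1 rose by 1.15 and 1.14 and Runx2 by 0.66 and 0.60, while Atf3 fell by 0.79 and 0.70. In KO Runx2 was thus at the edge of the fold threshold. The paper, with DESeq2, lists Runx2 among the genes that TGF-β raised only in WT, and reports the same from qPCR.

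The target genes past the threshold went opposite ways in the lists of the 2 branches. Of 8 TGF-β targets 5 rose in each genotype and none fell, and the list had a median of 1.19 in WT and 1.07 in KO on the log2 scale. Among those that rose, Ltbp2 had 2.15 and 2.09, Ctgf 1.75 and 1.87, Col1a1 1.31 and 1.20, and Fn1 1.07 and 0.94 (log2 fold change in WT and KO). Of 8 BMP targets 5 fell past the threshold in WT and 4 in KO and none rose past it, with a median of -0.77 and -0.65. At an adjusted p under 0.05 with no fold threshold, 5 were lower and 1 was higher in the average over genotypes. By that rule 22.4% of all genes were lower and 25.7% higher. Atoh8 fell by 1.66 and 1.42, Id4 by 1.22 and 1.04, Id3 by 1.15 and 1.04 and Id1 by 0.80 and 0.76, each of them in both genotypes. The fifth in WT, Id2, had -0.75 there and -0.54 in KO. No gene of these lists was called between the genotypes or in the interaction.

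The genes whose pattern over the 8 libraries was most like that of Skil and Smad7 were sought by the root mean square distance of log2 CPM, after subtracting each gene's mean, among the 13508 other genes. Nearest to Skil were Plod2, a collagen lysyl hydroxylase, at 0.0563 and Ncam1, the neural cell adhesion molecule, at 0.0710. The log2 fold change of Plod2 was 1.67 (WT) and 1.64 (KO), and Ncam1 1.68 and 1.44. Nearest to Smad7 were Gpc1, the proteoglycan glypican-1, and Nedd9, a docking protein of focal adhesions, each at 0.109. Gpc1 had 1.10 and 1.16, and Nedd9 1.10 and 1.12.

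Promoter windows covering 250 bases before the start and 50 after it were at hand for 6 of the 10 genes (Ski, Smad1, Smad3, Smad5, Smad6 and Smurf2) from RefSeq (GRCm38.p6). They were searched for GGCGCC, a GC-rich element that SMAD proteins are known to bind and that reads the same on both strands, in the 250 bases before the start. It occurred at least once in 9.59% of 32851 such windows of all genes. Skil and Smad7, the genes past the fold threshold, had no window at hand, and a link between the element and the response was not tested. Smurf2, the gene among these 6 with the largest log2 fold change, had 2 occurrences. They are shown with their surroundings because no other gene of the 6 had 2 in a window. How many windows of all genes held 2 was not counted. Capitals mark the element, 5′ to 3′ on the minus strand.
Smurf2, 234 bases before the start (chr11:106920932-106920961): tgccatcgagccGGCGCCgccgggcggtgt
Smurf2, 147 bases before the start (chr11:106920845-106920874): aggccttcctctGGCGCCccaggcgcagga
Ski had 1 occurrence, at 220 bases before the start, and Smad5 had 1 in 1 of its 3 windows, at 19 bases before the start. The other 3 genes had none in these windows. The shorter SMAD box AGAC (GTCT on the other strand) was in 82.9% of all windows, so it separates few genes.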

How the data were processed

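Unstranded RNA libraries of 8 astrocyte cultures were sequenced by the authors, who aligned reads with STAR in VIPER (build mm10 in the submitters' processing notes). They deposited raw read counts for 13937 genes and FPKM values from Cufflinks for 18644 genes. The counting program and annotation are not given in the sources used here, and the authors' DESeq2 tables of fold changes and p-values were not used. Libraries were assigned to groups from their titles. In R 4.3.3, counts were filtered with filterByExpr, scaled by TMM and fitted with edgeR 4.0.16 (quasi-likelihood, 4 group means, 8 libraries, two-sided tests). SEs come from the test statistic. CPM values are on TMM-scaled totals (prior count of 2 before taking log2). The fold threshold of 0.6 (log2) is the one the authors chose. In counts simulated from the same libraries, the fit recovered 86% of genes changed by 0.8 (log2) and 98% of those changed by 1.5 for TGF-β in WT, at 14 false calls in 13509 genes. In the interaction it recovered 69% and 100%, at 17 false calls. Each simulation changed 100 genes at each of these sizes, left all others unchanged and held no smaller change. In the data many more genes responded to TGF-β and none was called in the interaction. How far these shares hold for the data was not tested. Each value rests on 2 libraries of 14920561 to 18956038 counts.

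Alternatives were DESeq2 1.42.0, limma 3.58.1 (voom on counts, and log2 of FPKM plus a pseudocount of 1 or 0.1), RLE and upper quartile scaling, other filters (none, or 10 counts in each library), only the groups compared, Bonferroni, no fold threshold, a replicate block, each library left out, and RPKM from the counts over each gene's longest transcript in place of FPKM. The members and the pathway and marker lists were chosen with earlier results of these data known. Named are all 10 members, Rgcc, Smad9, Smurf1, up to 4 genes of each pathway list with the largest averaged change among those past the threshold in both genotypes, and the 2 genes nearest in pattern to each member past it in both. Fn1, Id2 and the marker genes were named after their values were seen, and 1 gene that the rule names is not reported here. Gene positions are from GENCODE M21 (GRCm38), and promoters from RefSeq.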

Additional observations from a re-analysis of the deposited data

Results flagged for a closer look

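For Smad5 and Smad4 the 2 treated libraries of WT lay on the opposite side of their control mean from the 2 treated libraries of RGC-32 KO. For Smad5 the log2 differences from the control mean were 0.07 and 0.04 in WT and -0.04 and -0.20 in RGC-32 KO, and the interaction (WT minus RGC-32 KO) was 0.17 with an unadjusted p of 0.176 and an adjusted p of 1.00 in edgeR. For Smad4 they were -0.06 and -0.04 in WT and 0.08 and 0.02 in RGC-32 KO, and the interaction was -0.10 with an unadjusted p of 0.290 and an adjusted p of 1.00 in edgeR. The tests thus did not show a difference between the genotypes for either gene.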

How the results depend on the processing

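Skil and Smad7 stayed past the threshold with TGF-β in both genotypes under every alternative run, with log2 fold changes of 1.42 to 1.81 (Skil) and 1.06 to 1.39 (Smad7) in WT and 1.36 to 1.69 and 1.00 to 1.20 in RGC-32 KO. Without a fold threshold 4 of the 10 genes passed in RGC-32 KO and 7 in the average over genotypes, where the larger counts follow from the looser rule. Of those, DESeq2 lost Smad6 in RGC-32 KO (adjusted p = 0.0981) and Smad2 in the average (0.212).

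The small responses changed sign. On FPKM with a pseudocount of 1 or 0.1, Smad2 had -0.011 and -0.012 in WT and -0.0052 and -0.0059 in the average, Smad5 -0.070 and -0.074 in WT, and Smad4 -0.087 and -0.091 in RGC-32 KO. With upper quartile scaling Smad5 had -0.032 in WT and Smad4 -0.035 in RGC-32 KO. Leaving out each library in turn gave -0.0011 to 0.094 for Smad5 in WT, -0.094 to 0.014 for Smad5 in the average, -0.030 to 0.11 for Smad4 in RGC-32 KO and -0.048 to 0.030 for Smad4 in the average. For WT against RGC-32 KO with TGF-β it gave -0.068 to 0.023 for Smad7, and for the interaction -0.025 to 0.21 for Skil and -0.085 to 0.12 for Smurf2. The cause was not tested. On RPKM in place of FPKM, the share of Smad9 became 2.50% in WT TGF-β and, in the treated RGC-32 KO libraries, 2.79%, that of Smad3 there 15.4%, and that of Smad7 in RGC-32 KO control 6.21%.

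Over all genes, TGF-β called 1806 in WT, 1559 in RGC-32 KO and 2037 in the average. Bonferroni's correction left 174, 141 and 446, no fold threshold gave 4450, 3835 and 6496, and FPKM with a pseudocount of 1 gave 1103, 1034 and 1115. Leaving out a library gave 1200 to 1790 in WT, the lowest without WT TGF-β replicate 2. Between the genotypes 5 genes were called without TGF-β, 6 with it and 17 in the average. DESeq2 gave 13, 33 and 39, and 13 and 42 on the groups compared only. Limma-voom gave 3 with TGF-β, edgeR on the groups compared only gave 2 without it, Bonferroni's correction gave 3, 3 and 5, no fold threshold gave 57 in the average, and FPKM with a pseudocount of 1 gave 8 there. Leaving out a library gave 0 to 3 without TGF-β, 0 to 6 with it and 5 to 22 in the average.

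Replicate numbers in the labels do not tie libraries to a shared pup, litter or day. Deviations of libraries with the same number correlated at -0.34 between the WT groups, -0.35 between the RGC-32 KO groups, 0.49 between the controls and 0.25 between the treated groups. With the replicate block, 1616 genes were called with TGF-β in WT and 1369 in RGC-32 KO, and between the genotypes 2 without TGF-β, 3 with it and 9 in the average, no call of Skil or Smad7 changed, and Smad2 missed an adjusted p of 0.05 in the average (0.0610). With crossed numbers as the block, chosen after seeing the data, between the genotypes 10, 36 and 61 genes were called. Each group has 2 libraries, so intervals are wide for small differences, and the lowest count of any of the 10 genes in a library was 392.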
